A study of Homo sapiens with 16 samples.

Results

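The genes described here are the subunits of the NMDA receptor, the glutamate-gated channel that ketamine blocks: GRIN1, GRIN2A, GRIN2B, GRIN2C, GRIN2D, GRIN3A and GRIN3B, together with GRINA. They were chosen by symbol from the table of gene counts, and all 8 were found among its 25370 genes. GRINA carries an NMDA receptor name (glutamate ionotropic receptor NMDA type subunit associated protein 1) but encodes a membrane protein of the TMBIM family and no channel subunit. Levels are given as CPM, reads of a gene scaled to a common library size, after TMM normalization, and changes as log2 fold changes with their standard error (SE).

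The cells were HMC3, an established human microglial line, so all libraries come from a single immortalized line of cells grown alone. They were exposed for 24 h to vehicle, to 0.1 nM estradiol (E2), to a drug at 400 nM (ketamine or its metabolite (2R,6R)-HNK or (2S,6S)-HNK), or to a drug at 400 nM together with 0.1 nM E2. The descriptions name no genetic change made to the cells. Per the study's methods they were grown with serum, moved to charcoal-stripped serum and then to none, and treated in medium free of serum and phenol red. RNA sequencing gave 16 libraries, 2 for each of 8 conditions. Nothing in the labels tells if a condition's 2 libraries were grown as separate cultures, so every p-value below measures the spread between these libraries only.

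NMDA receptors are assembled from the obligatory GluN1 subunit (GRIN1) with GluN2 subunits (GRIN2A to GRIN2D), which bind glutamate, and in some receptors with GluN3 subunits (GRIN3A and GRIN3B), which bind glycine. GluN1 binds the co-agonist glycine or D-serine, and the open channel admits calcium. Ketamine blocks the open pore, while the hydroxynorketamines (HNK), which the body makes from it, bind this site far more weakly. These receptors are best known from neurons, where the GluN2 subunit present sets how long the channel stays open.

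Each library held between 55300614 and 81646165 counts, and 3 counts correspond to 0.035 to 0.0547 CPM. In all, 16004 genes passed the filter on low counts, among them 6 of the 8 genes described here; GRIN2A and GRIN2B did not. Of 12 microglial markers, CD68 averaged at least 1 CPM. AIF1, CX3CR1, P2RY12, TMEM119, ITGAM, SPI1, PTPRC and SALL1, which define microglia, never exceeded 7 counts in a library. The summed level of the 12 markers was 108 and 111 CPM in the vehicle libraries and 71.2 to 111 CPM over all libraries. The 10 neuron markers summed to 3.88 to 6.1 CPM, against 3.91 and 4.4 CPM in vehicle, and 2 of them were at 0 in every library. The 5 astrocyte markers summed to 3.33 to 8.94 CPM, against 3.33 and 3.44 CPM in vehicle, and the 5 oligodendrocyte markers to 2.12 to 5.38 CPM, against 2.13 and 2.66 CPM. Most of the astrocyte sum was ALDH1L1, while AQP4 was at 0 in every library. ALDH1L1 rose by 1.42 on the log2 scale with (2S,6S)-HNK, 1.5 with E2+(2R,6R)-HNK and 1.24 with E2+(2S,6S)-HNK. In these treatments GRIN3B had its 3 highest values. ALDH1L1 also rose by 0.73 with E2+ketamine. It had -0.04 with E2, 0.23 with ketamine and 0.2 with (2R,6R)-HNK, where GRIN3B rose by 0.84, 0.94 and 0.53. The 6 fibroblast and pericyte markers summed to 4.26e+03 to 6.47e+03 CPM, most of it COL1A1, against 4.75e+03 and 4.76e+03 CPM in vehicle. Of these 6 markers, 4 averaged at least 1 CPM. DCN had at most 12 counts in a library and LUM at most 4, and neither passed the filter. The part these differences in marker levels play in the results below was not tested.

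Of the members that passed the filter, GRIN3A and GRIN3B, the pair of glycine-binding subunits, moved in opposite directions, and GRIN2D was the channel subunit with the most reads. Their sequences just before the transcription start are therefore shown. Each run covers the 250 bases before the start in RefSeq on GRCh38.p14, 5′ to 3′ on the gene's strand, and capitals mark a GC box (GGGCGG on either strand). The GRIN3A window is chr9:101738648-101738897 on the minus strand, the GRIN3B window chr19:1000169-1000418 on the plus strand and the GRIN2D window chr19:48393418-48393667 on the plus strand.
GRIN3A: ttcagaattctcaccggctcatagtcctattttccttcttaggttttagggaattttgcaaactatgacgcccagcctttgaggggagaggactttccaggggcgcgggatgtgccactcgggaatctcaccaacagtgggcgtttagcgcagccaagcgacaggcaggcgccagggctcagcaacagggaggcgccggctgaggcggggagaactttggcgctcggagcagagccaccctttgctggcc
GRIN3B: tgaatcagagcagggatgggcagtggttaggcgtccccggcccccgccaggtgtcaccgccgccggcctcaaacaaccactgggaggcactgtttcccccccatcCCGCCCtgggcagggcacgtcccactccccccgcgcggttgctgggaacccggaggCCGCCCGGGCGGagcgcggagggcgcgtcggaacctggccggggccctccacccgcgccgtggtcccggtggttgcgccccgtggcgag
GRIN2D: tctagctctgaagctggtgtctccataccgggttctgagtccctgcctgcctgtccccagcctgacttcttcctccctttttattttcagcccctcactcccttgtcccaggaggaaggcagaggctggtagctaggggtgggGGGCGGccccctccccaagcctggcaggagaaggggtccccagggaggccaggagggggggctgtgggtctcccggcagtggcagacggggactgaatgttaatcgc

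The GRIN3B window was 75.2% G or C and held 3 GC boxes, the GRIN2D window was 63.6% G or C and held 1, and the GRIN3A window was 58.8% G or C and held 0. The median over 35116 RefSeq promoter windows of the same length was 58%, and 42.6% of them held a GC box. The letters TTCNNNGAA, a motif of STAT factors, were in none of these 3 windows and in 6.57% of all windows. A match describes letters only, and the lack of one says nothing of the factor. The RefSeq table matched 5 of the 8 genes; GRIN1, GRIN2C and GRINA were not matched. The transcribed parts differed in the same order as the windows: the exons of GRIN3B were 70.3% G or C, those of GRIN2D 69% and those of GRIN3A 48.4%.

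Detection came first. GRIN1, GRIN2C, GRIN2D, GRIN3A, GRIN3B and GRINA had reads in all 16 libraries. GRIN2A, whose subunit dominates in mature forebrain neurons, had 8 counts in all: 2 each in the first vehicle library and in the second libraries of ketamine, (2S,6S)-HNK and E2+(2R,6R)-HNK, and 0 in the other 12. GRIN2B, whose subunit dominates early in development, had 34 counts in all, with 0 in 6 libraries and at most 6 in any. Its vehicle libraries held 0 and 6 counts and its ketamine libraries 1 and 2. At this depth GRIN2A was at or under 3 counts in 16 of 16 libraries and GRIN2B in 10 of 16, so a difference between conditions was not detectable for either. Low counts in this table were often even (65.8% of counts from 1 to 9, against 49.9% of counts of 500 or more), and all 4 of the GRIN2A counts above 0 and 8 of 10 of the GRIN2B counts were. The study's methods describe counting of read pairs, and whether both reads of a pair were counted could not be settled here. If they were, the fragments behind a printed count are that count divided by 2.

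Levels between genes were compared per kilobase of exon (CPM per kb, mean over the 16 libraries). GRINA stood at 68.1 CPM per kb, GRIN2D at 1.04, GRIN3B at 0.687, GRIN2C at 0.265, GRIN1 at 0.043, GRIN3A at 0.033, GRIN2B at 0.00101 and GRIN2A at 0.000397. With the length of the canonical transcript in place of all exons, GRIN2C stood at 0.533 and GRIN1 at 0.108, and the order stayed the same. By mean CPM, not divided by length, GRINA lay at percentile 95.6 of all genes of the table and GRIN2D, the next member, at percentile 60.1. The gene of the obligatory subunit was thus read less often per length than those of GRIN2D, GRIN3B and GRIN2C. In vehicle cells GRIN3A (0.0727 ± 0.0129 CPM per kb of exon, SD, n = 2) lay above GRIN1 (0.0256 ± 0.0111), but per kb of the canonical transcript they stood at 0.0759 and 0.0646. After E2 GRIN1 (0.0334 ± 0.0103) and GRIN3A (0.0301 ± 0.00163) lay within their spread per kb of exon, and at 0.0841 and 0.0315 per kb of the canonical transcript. The gap between this pair thus depends on the length used.

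**Figure D1:**
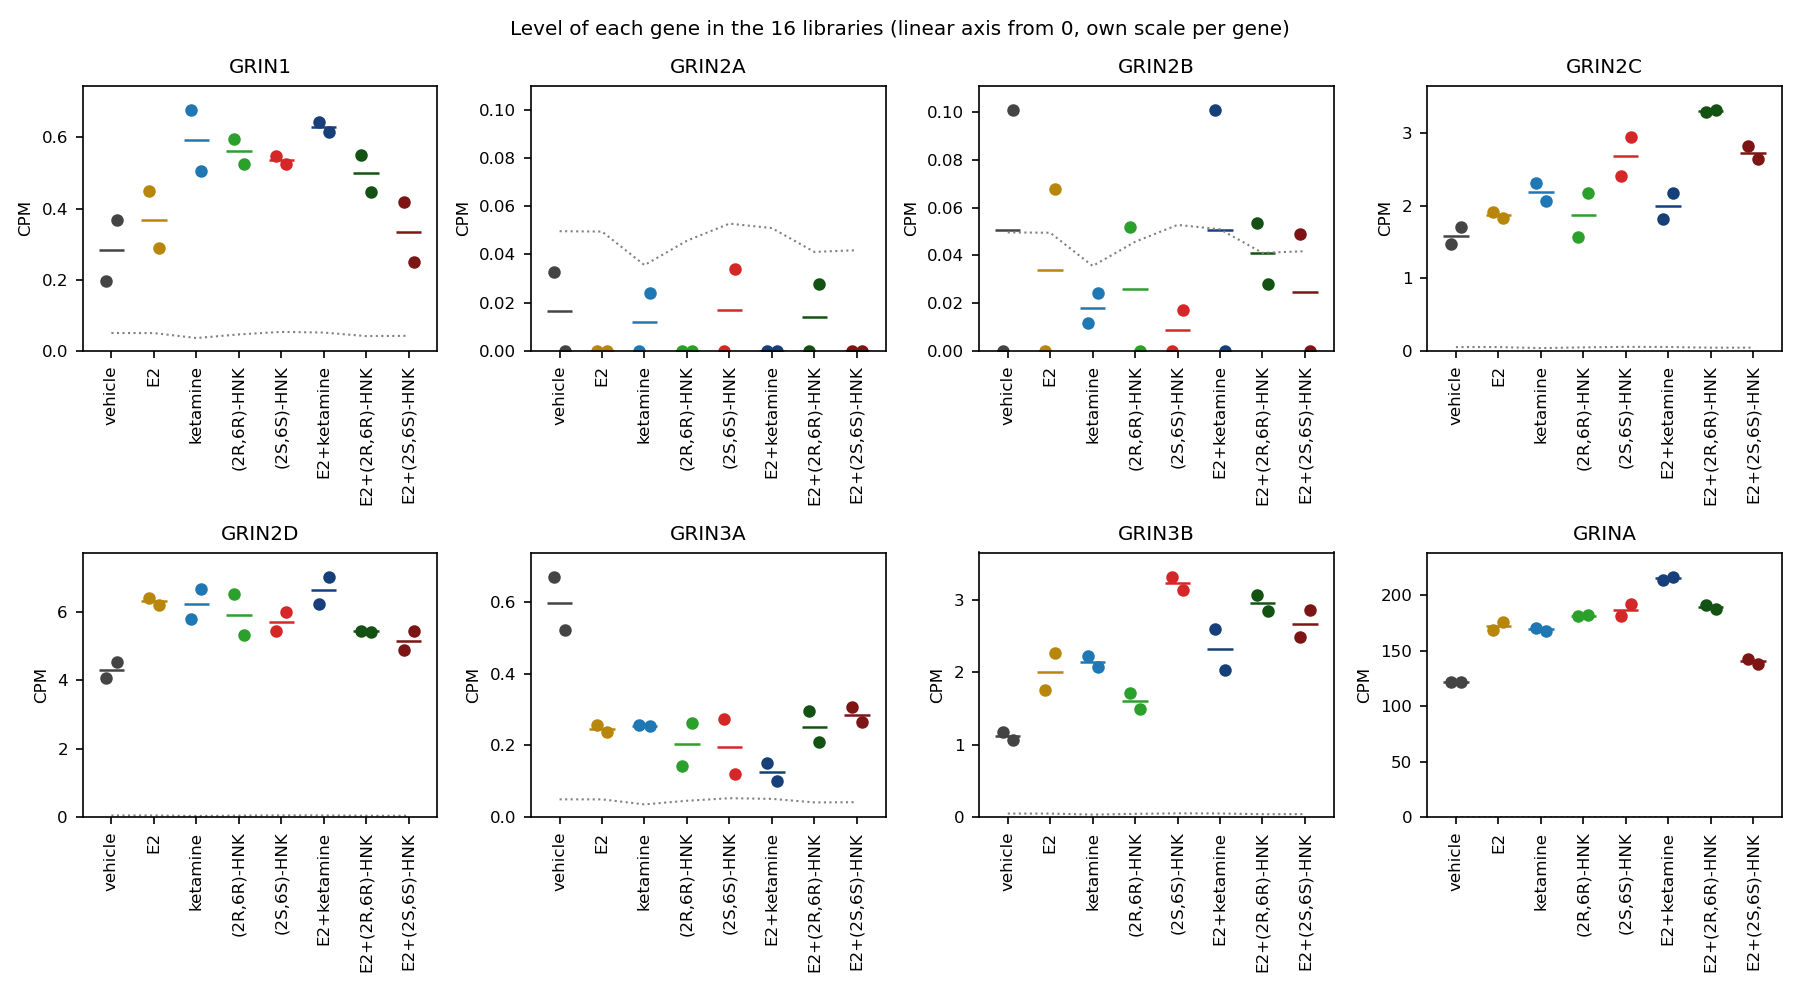
Level of each of the 8 genes in CPM (linear axis from 0, own scale per gene) in the 16 libraries; points are libraries, bars are means of 2 and the dotted line is the level of 3 counts. GRIN2A stays under that line in every library, GRIN3A is highest in the 2 vehicle libraries, and GRIN2D, GRIN3B and GRINA are lowest there.

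As shares of the summed CPM per kb of the 7 channel subunits, GRIN2D took 55.5% ± 2.26 (SD, n = 2) in vehicle and between 42% and 57.7% in the 7 treatments. GRIN3B took 24.2% ± 2.75 in vehicle and 30.8% ± 2.22 with ketamine. Its share was 40.9% ± 2.71 with (2S,6S)-HNK but 26.3% ± 0.607 with (2R,6R)-HNK. GRIN3A took 5.18% ± 1.12 in vehicle and between 0.7% and 1.64% in the treatments. GRIN1 lay between 1.43% and 2.73% in every condition. These shares are descriptions and were not tested, and they depend on the exon lengths used.

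**Figure D2:**
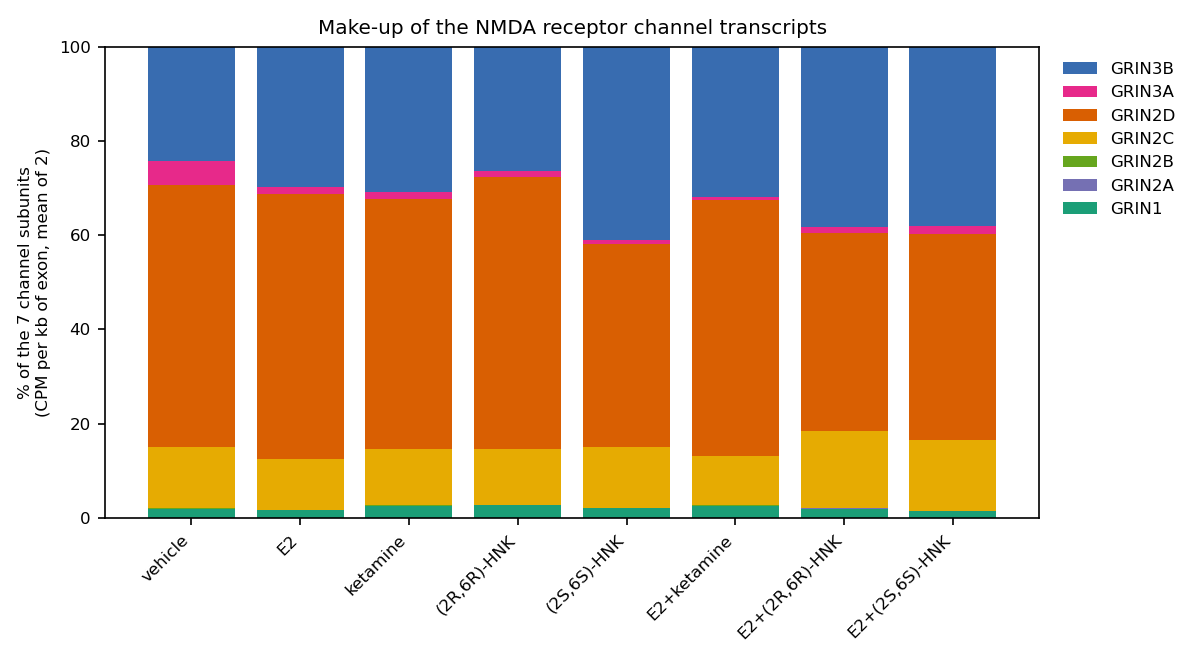
Share of each of the 7 channel subunits in their summed CPM per kb of exon (bars, mean of 2 libraries, in percent) in the 8 conditions. GRIN2D and GRIN3B fill most of each bar, and the GRIN3B part is largest with (2S,6S)-HNK (40.9%, against 24.2% in vehicle).

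The first question of the design was how each treatment changed these transcripts against vehicle. Fitted by edgeR's quasi-likelihood test over all genes and adjusted by Benjamini-Hochberg, 4 of the 6 tested members changed with E2, 6 after ketamine, 5 after (2R,6R)-HNK and 5 after (2S,6S)-HNK. With E2 added, 5 changed after ketamine, 5 after (2R,6R)-HNK and 3 after (2S,6S)-HNK. Most genes of the table passed the same test: 62.5% with E2, 59.3% with ketamine, 66.6% with (2R,6R)-HNK, 67.9% with (2S,6S)-HNK, 71.7% with E2+ketamine, 69.7% with E2+(2R,6R)-HNK and 59.7% with E2+(2S,6S)-HNK. With 6 tested members, counts of 3 to 6 are to be read against these shares, and nothing particular to the members is drawn from them. With a change of at least 1 on the log2 scale also required, GRIN3A was called with E2, against 1.81% of all genes. With ketamine GRIN1 and GRIN3A were called (3.56% of all genes), with (2R,6R)-HNK GRIN3A (3.75%) and with (2S,6S)-HNK GRIN3A and GRIN3B (9.08%). With E2+ketamine GRIN1, GRIN3A and GRIN3B were called (11% of all genes), with E2+(2R,6R)-HNK GRIN2C, GRIN3A and GRIN3B (11.5%) and with E2+(2S,6S)-HNK GRIN3B (5.85%). All 7 comparisons share the same 2 vehicle libraries, so they are not independent of each other.

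The median log2 fold change of the 6 tested members was 0.44 with E2, 0.51 after ketamine, 0.5 after (2R,6R)-HNK and 0.69 after (2S,6S)-HNK, while the median over all 16004 genes was -0.003, -0.02, -0.023 and -0.031. It was 0.72 with E2+ketamine, 0.73 with E2+(2R,6R)-HNK and 0.26 with E2+(2S,6S)-HNK, against -0.035, -0.021 and -0.064 over all genes. Of the members called, GRIN3A was the one that fell. Both vehicle libraries lay below all 14 treated libraries for GRIN2D, GRIN3B and GRINA, as for 17.8% of all tested genes. Both lay above all treated libraries for GRIN3A, as for 26% of all tested genes.

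Base composition moved with these changes. Over the 2210 tested genes whose exons were at least 60% G or C, the median log2 fold change was 0.44 with E2, 0.33 with ketamine, 0.52 with (2R,6R)-HNK, 0.5 with (2S,6S)-HNK, 0.72 with E2+ketamine, 0.54 with E2+(2R,6R)-HNK and 0.24 with E2+(2S,6S)-HNK. Over the 8303 genes under 50% it was -0.35, -0.27, -0.43, -0.4, -0.56, -0.41 and -0.22. The rises of GRINA lay near the first series, furthest from it with ketamine (0.48). Those of GRIN2D lay further off with ketamine (0.54, above it) and E2+(2R,6R)-HNK (0.33, below it). A loess correction of each library for exon GC content and length took most of the rise out of GRINA (64.7% G or C) and GRIN2D (69%). The corrected value is given below beside each gene. GRIN3A (48.4%) hardly moved under it. A true change that goes with GC content is taken out by the same step, and the part of base composition in the results was not tested.

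**Figure D3:**
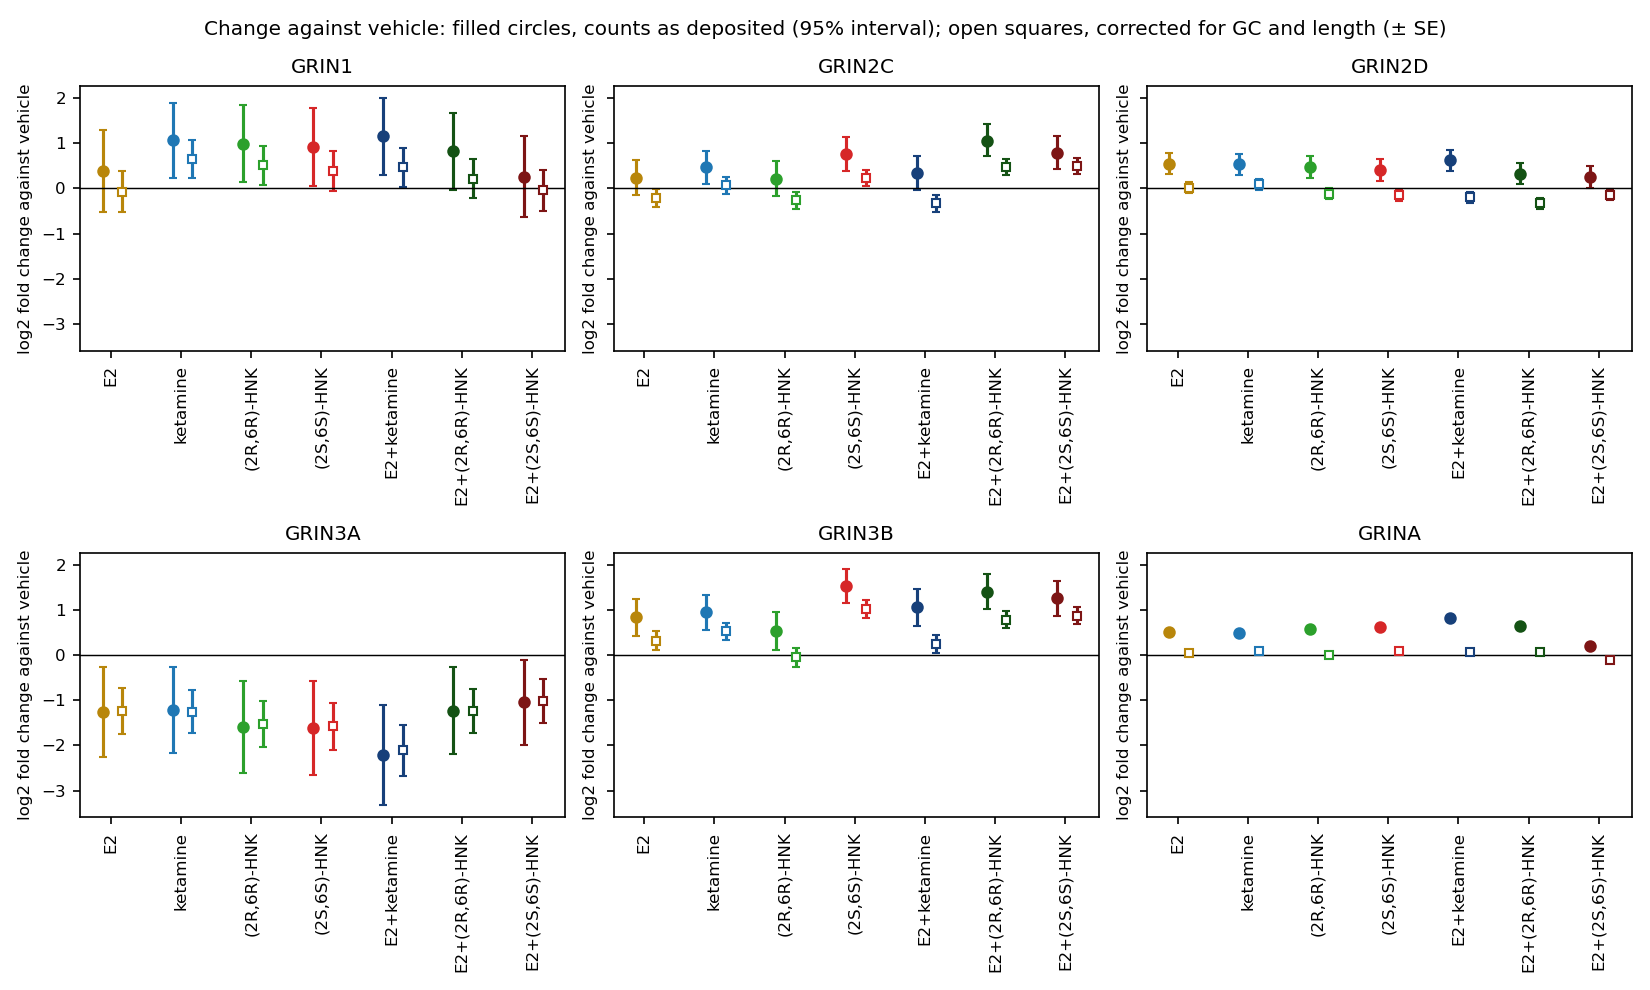
Log2 fold change against vehicle of the 6 tested genes (vertical axis) in 7 treatments; filled circles with 95% intervals are from the counts as deposited and open squares with SE bars are after the GC and length correction. GRIN3A lies below 0 in all 7 under both, GRIN3B stays highest with (2S,6S)-HNK, and the corrected values lie between -0.11 and 0.09 for GRINA and between -0.33 and 0.09 for GRIN2D.

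GRIN1, the obligatory subunit, had few reads, between 12 and 58 counts in a library. It stood at 0.196 and 0.369 CPM in vehicle, 0.677 and 0.506 with ketamine, 0.596 and 0.525 after (2R,6R)-HNK, 0.547 and 0.526 after (2S,6S)-HNK and 0.642 and 0.614 with E2+ketamine. With E2 it stood at 0.449 and 0.288, with E2+(2R,6R)-HNK at 0.55 and 0.447 and with E2+(2S,6S)-HNK at 0.417 and 0.249. The ketamine, HNK and E2+ketamine libraries all lay above both vehicle libraries, while E2 and E2+(2S,6S)-HNK overlapped vehicle. GRIN1 rose with ketamine by a log2 fold change of 1.07 (SE 0.411, adjusted p = 0.0226), with (2R,6R)-HNK by 0.99 (SE 0.422, adjusted p = 0.0352) and with E2+ketamine by 1.15 (SE 0.422, adjusted p = 0.0135). The value for (2S,6S)-HNK was 0.92 (adjusted p = 0.0553), for E2+(2R,6R)-HNK 0.82 (adjusted p = 0.0819), for E2 0.39 and for E2+(2S,6S)-HNK 0.26.

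These calls of GRIN1 were not firm. Corrected for GC and length the 3 values were 0.65, 0.51 and 0.47, none of them called. Without the first vehicle library, which held 12 counts, they were 0.68 (adjusted p = 0.267), 0.61 (0.317) and 0.76 (0.189). The ketamine call also ended without the first ketamine library (0.84, adjusted p = 0.172), the (2R,6R)-HNK call without either of its own libraries (0.89 and 1.07, adjusted p = 0.152 and 0.0602) and the E2+ketamine call without its first library (1.12, adjusted p = 0.0545). DESeq2 gave an adjusted p of 0.0519 for (2R,6R)-HNK. Without the second vehicle library (2S,6S)-HNK (1.44, adjusted p = 0.0288) and E2+(2R,6R)-HNK (1.34, adjusted p = 0.0398) passed as well.

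GRIN2D, a glutamate-binding subunit known for slow deactivation and early or interneuron expression, had 249 to 555 counts in a library. It stood at 4.07 and 4.55 CPM in vehicle, 6.42 and 6.22 with E2, 5.8 and 6.69 with ketamine, 6.52 and 5.32 with (2R,6R)-HNK and 5.44 and 5.99 with (2S,6S)-HNK. With E2 added it stood at 6.23 and 7.04 for ketamine, 5.45 and 5.42 for (2R,6R)-HNK and 4.88 and 5.44 for (2S,6S)-HNK. Every treated library lay above both vehicle libraries. GRIN2D rose by 0.55 with E2 (SE 0.119, adjusted p = 6.07e-05), 0.54 with ketamine (SE 0.116, adjusted p = 7.59e-05), 0.47 with (2R,6R)-HNK, 0.41 with (2S,6S)-HNK, 0.62 with E2+ketamine (SE 0.119, adjusted p = 6.67e-06) and 0.33 with E2+(2R,6R)-HNK. E2+(2S,6S)-HNK, at 0.26, had an adjusted p of 0.06. After the GC and length correction the values ran from 0.02 with E2 and 0.09 with ketamine to -0.33 with E2+(2R,6R)-HNK. That last one is called in the opposite direction (adjusted p = 0.0157) and the others are not called. Without the first vehicle library the calls for (2S,6S)-HNK (0.33, adjusted p = 0.0525) and E2+(2R,6R)-HNK (0.26, adjusted p = 0.128) ended, as did that for (2R,6R)-HNK without its first library (0.3, adjusted p = 0.0706). E2+(2S,6S)-HNK passed without its first library (0.34, adjusted p = 0.0493).

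GRIN2C, the glutamate-binding subunit known from cerebellar granule cells, had 90 to 245 counts. It stood at 1.47 and 1.7 CPM in vehicle, 1.91 and 1.83 with E2, 2.31 and 2.06 with ketamine, 1.57 and 2.17 with (2R,6R)-HNK and 2.41 and 2.95 with (2S,6S)-HNK. With E2 added it stood at 1.82 and 2.18 for ketamine, 3.29 and 3.32 for (2R,6R)-HNK and 2.82 and 2.64 for (2S,6S)-HNK. Only the (2R,6R)-HNK libraries overlapped vehicle. GRIN2C rose most with E2+(2R,6R)-HNK (1.06, SE 0.177, adjusted p = 5.83e-07), followed by E2+(2S,6S)-HNK (0.79, SE 0.18, adjusted p = 0.000162), (2S,6S)-HNK alone (0.76, SE 0.185, adjusted p = 0.000285) and ketamine (0.47, SE 0.182, adjusted p = 0.0239). It did not pass with E2 (0.24), (2R,6R)-HNK (0.22) or E2+ketamine (0.34). After the GC and length correction E2+(2R,6R)-HNK (0.48, adjusted p = 0.0167) and E2+(2S,6S)-HNK (0.49, adjusted p = 0.0162) were still called, and (2S,6S)-HNK (0.23) and ketamine (0.07) were not. E2 (-0.21), (2R,6R)-HNK (-0.26) and E2+ketamine (-0.33) came out below 0 there without passing. The ketamine call ended without the first ketamine library (0.38, adjusted p = 0.151) or the first vehicle library (0.37, adjusted p = 0.175).

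GRIN3A encodes a glycine-binding subunit that lowers the calcium permeability and magnesium block of receptors that contain it. It was the channel subunit gene that fell. It had 41 and 31 counts in the vehicle libraries and between 6 and 25 in the treated ones. In CPM it stood at 0.67 and 0.52 in vehicle, 0.256 and 0.237 with E2, 0.257 and 0.253 with ketamine, 0.143 and 0.262 with (2R,6R)-HNK and 0.274 and 0.119 with (2S,6S)-HNK. With E2 added it stood at 0.152 and 0.102 for ketamine, 0.295 and 0.209 for (2R,6R)-HNK and 0.307 and 0.264 for (2S,6S)-HNK. All 14 treated libraries lay below both vehicle libraries. The fall was largest with E2+ketamine, a log2 fold change of -2.21 (SE 0.55, adjusted p = 0.000353), to a fold of 0.216 of vehicle. It was -1.61 with (2S,6S)-HNK (SE 0.517, adjusted p = 0.00536), -1.59 with (2R,6R)-HNK (SE 0.504, adjusted p = 0.00478), -1.26 with E2 (adjusted p = 0.0231), -1.23 with E2+(2R,6R)-HNK (adjusted p = 0.0202) and -1.22 with ketamine (SE 0.469, adjusted p = 0.0226). E2+(2S,6S)-HNK, at -1.05, had an adjusted p of 0.0513.

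After the GC and length correction the GRIN3A values were -1.24 with E2, -1.25 with ketamine, -1.52 with (2R,6R)-HNK, -1.58 with the other metabolite, and -2.11 with E2+ketamine. These and E2+(2R,6R)-HNK (-1.23) kept an adjusted p between 0.00095 and 0.042. All 6 calls and their direction thus held under this correction. The small counts limit the precision. Without the first vehicle library, which held 41 counts, the adjusted p was 0.143 for E2 (-1.07), 0.153 after ketamine (-1.02), 0.0516 after (2R,6R)-HNK (-1.39), 0.0523 after (2S,6S)-HNK (-1.41) and 0.135 for E2+(2R,6R)-HNK (-1.04). The E2 call also ended without either E2 library (adjusted p = 0.0784 and 0.101) and the ketamine call without either ketamine library (0.0911 and 0.0936). The (2R,6R)-HNK call ended without its first library (-1.18, adjusted p = 0.104), the (2S,6S)-HNK call without its second (-1.12, adjusted p = 0.114) and the E2+(2R,6R)-HNK call without its second (-1.01, adjusted p = 0.142). DESeq2 gave adjusted p-values of 0.0582 for E2, 0.061 for ketamine and 0.0544 for E2+(2R,6R)-HNK. The E2+ketamine call held with each library left out in turn (adjusted p at most 0.0112).

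GRIN3B, the other glycine-binding subunit, known from motor neurons, rose in all 7 comparisons. It had 63 to 228 counts in a library. It stood at 1.18 and 1.06 CPM in vehicle, 1.75 and 2.26 with E2, 2.22 and 2.07 with ketamine, 1.72 and 1.49 with (2R,6R)-HNK and 3.32 and 3.14 with (2S,6S)-HNK. With E2 added it stood at 2.6 and 2.03 for ketamine, 3.06 and 2.85 for (2R,6R)-HNK and 2.48 and 2.86 for (2S,6S)-HNK. Every treated library lay above both vehicle libraries. The log2 fold change was 1.53 with (2S,6S)-HNK (SE 0.19, adjusted p = 6.32e-10), 1.4 with E2+(2R,6R)-HNK (SE 0.188, adjusted p = 4.1e-09), 1.25 with E2+(2S,6S)-HNK (SE 0.19, adjusted p = 1.32e-07) and 1.05 with E2+ketamine (SE 0.197, adjusted p = 4.92e-06). It was 0.94 with ketamine, 0.84 with E2 and 0.53 with (2R,6R)-HNK (SE 0.203, adjusted p = 0.0192). After the GC and length correction (2S,6S)-HNK (1.02), E2+(2S,6S)-HNK (0.87), E2+(2R,6R)-HNK (0.78) and ketamine (0.52) were called, with adjusted p between 5.18e-06 and 0.0225. E2 (0.32), E2+ketamine (0.24) and (2R,6R)-HNK (-0.05) were not. The (2R,6R)-HNK call also ended without its first library (0.41, adjusted p = 0.165) or the second vehicle library (0.45, adjusted p = 0.115).

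The exons of GRIN3B overlap those of TMEM259 on the opposite strand by 85 bases in the GENCODE models on GRCh37. Whether the counting used strand was not given in the sources used here. TMEM259 stood at 194 ± 8.14 CPM in vehicle (SD, n = 2) and rose by 0.38 with ketamine to 0.88 with E2+ketamine. Reads of the overlap could belong to either gene, and the part of TMEM259 in the GRIN3B values was not tested. GRIN3A has PPP3R2 inside an intron, with 0 to 1 counts in a library and no shared exon bases.

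GRINA, the TMBIM family member known as a calcium-handling membrane protein of the Golgi and endoplasmic reticulum, had 7282 to 14658 counts. It stood at 122 CPM in both vehicle libraries, 169 and 176 with E2, 171 and 168 with ketamine, 181 and 182 with (2R,6R)-HNK and 181 and 192 with (2S,6S)-HNK. With E2 added it stood at 214 and 217 for ketamine, 191 and 188 for (2R,6R)-HNK and 143 and 138 for (2S,6S)-HNK. Every treated library lay above both vehicle libraries. GRINA rose most with E2+ketamine (0.82, SE 0.03, adjusted p = 3.51e-29) and least with E2+(2S,6S)-HNK (0.2, SE 0.03, adjusted p = 1.08e-07). The others lay between 0.48 with ketamine and 0.64 with E2+(2R,6R)-HNK. Corrected for GC and length, all were small, from -0.11 with E2+(2S,6S)-HNK to 0.09 with ketamine and (2S,6S)-HNK. The calls for E2 (0.04) and (2R,6R)-HNK (-0.00092) ended there. The E2+(2S,6S)-HNK value turned to a fall that passed the test (adjusted p = 0.00027). GRINA shares 324 exon bases with PARP10 on the opposite strand. PARP10 stood at 10.3 ± 0.757 CPM in vehicle and rose by 0.47 to 1.35 in the 7 comparisons.

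The second question was whether ketamine and its metabolites differed from each other at the same dose of 400 nM and the same 24 h. Ketamine carries an N-methyl group that the HNKs lack, and each HNK carries a hydroxyl group; (2R,6R)-HNK and (2S,6S)-HNK are mirror images. There were 6 pairs, 3 without E2 and 3 with it. For each gene the p-values were also adjusted over the 6 pairs.

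GRIN3B separated the mirror images. It was higher with (2S,6S)-HNK (3.23 ± 0.129 CPM, SD, n = 2) than with (2R,6R)-HNK (1.6 ± 0.167), a log2 fold change of 1 (SE 0.177, 95% interval 0.64 to 1.36). The adjusted p was 6.27e-06 over all genes and 5.6e-06 over the 6 pairs. The GC and length correction left 1.07, and leaving out each of the 4 libraries in turn gave 0.9 to 1.12, called each time. GRIN2C was also higher with (2S,6S)-HNK, by 0.54 (SE 0.179, 95% interval 0.18 to 0.9, adjusted p = 0.0116, over the 6 pairs 0.012). That call held under the correction (0.49) but ended without the first (2R,6R)-HNK library (0.31, adjusted p = 0.292) or the second (2S,6S)-HNK library (0.38, adjusted p = 0.18). In this pair 2 of the 6 tested members were called, against 43.5% of all genes. The other 4 did not pass, with 95% intervals of -0.85 to 0.71 for GRIN1, -0.29 to 0.17 for GRIN2D, -1.2 to 1.17 for GRIN3A and -0.02 to 0.1 for GRINA. Differences within those intervals cannot be told from these libraries. After the correction GRINA passed, at 0.09 (adjusted p = 0.00162).

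Against ketamine, (2S,6S)-HNK gave more GRIN3B, by 0.59 (SE 0.167, 95% interval 0.25 to 0.92, adjusted p = 0.00292, over the 6 pairs 0.00282), and 0.5 after the correction. It gave slightly more GRINA, by 0.14 (SE 0.029, adjusted p = 0.000102), a difference that was -0.0015 once corrected. These 2 members were called, against 46.1% of all genes. (2R,6R)-HNK against ketamine gave 1 called member, against 45.4% of all genes. That was GRINA at 0.1 (SE 0.029, adjusted p = 0.00407), which turned to -0.1 after the correction (adjusted p = 0.00128) and was no longer called without the second ketamine library (0.09, adjusted p = 0.0642). GRIN3B was lower with (2R,6R)-HNK than with ketamine by -0.41 (95% interval -0.77 to -0.05), with an adjusted p of 0.0555. After the correction it passed, at -0.57 (adjusted p = 0.00831). GRIN3A did not differ detectably between ketamine and either metabolite, with wide 95% intervals of -1.44 to 0.7 for (2R,6R)-HNK and -1.49 to 0.71 for (2S,6S)-HNK. For GRIN1 they were -0.81 to 0.66 and -0.9 to 0.62.

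**Figure D4:**
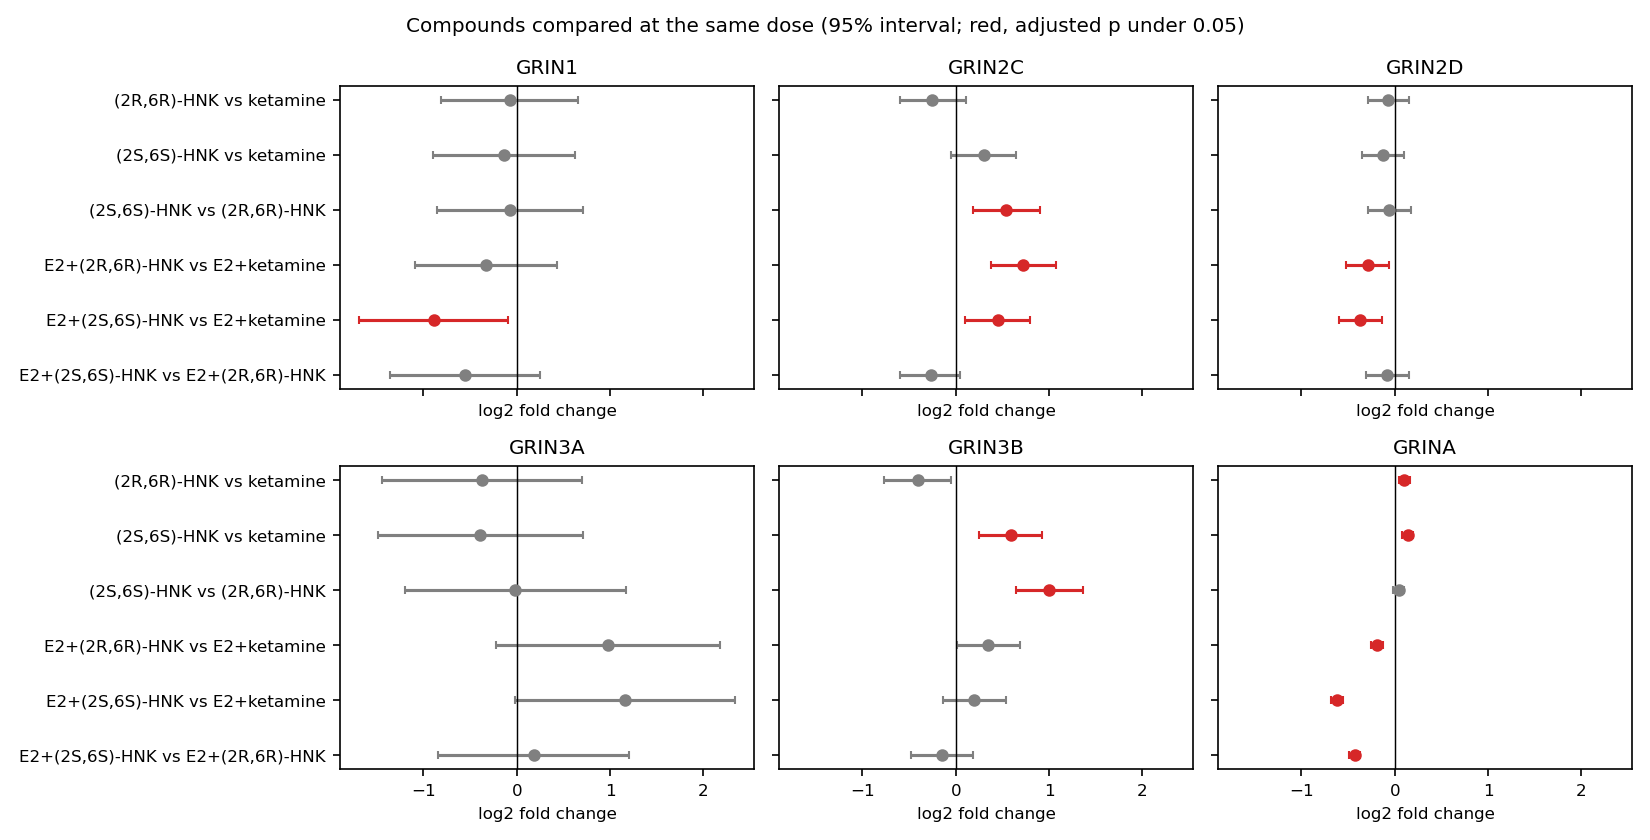
Log2 fold change between compounds at the same dose for the 6 tested genes (horizontal axis, points with 95% intervals), red where the adjusted p is under 0.05. GRIN3B separates (2S,6S)-HNK from (2R,6R)-HNK without E2, GRIN2C separates both HNKs from ketamine with E2, and the GRIN3A intervals are the widest.

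The same pairs were compared with E2 present; whether a pair's difference changed with E2 was not tested. GRIN2C was higher with E2+(2R,6R)-HNK than with E2+ketamine by 0.72 (SE 0.172, 95% interval 0.38 to 1.07, adjusted p = 0.000356, over the 6 pairs 0.000686), and by 0.81 after the correction. GRIN2D was lower there by -0.29 (SE 0.113, adjusted p = 0.0283), a call that ended after the correction (-0.14), by DESeq2 (adjusted p = 0.0528) and without either E2+(2R,6R)-HNK library (adjusted p = 0.0906 and 0.0977) or the second E2+ketamine library (-0.2, adjusted p = 0.267). GRINA was lower by -0.19 and lay at 0.01 once corrected. These 3 members were called, against 52% of all genes.

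Between E2+(2S,6S)-HNK and E2+ketamine 4 members were called, against 66.8% of all genes. GRINA was lower with E2+(2S,6S)-HNK by -0.62 (SE 0.03, adjusted p = 2.66e-24), and by -0.17 after the correction. GRIN2C was higher by 0.45 (SE 0.175, adjusted p = 0.021) and by 0.82 after the correction. By DESeq2 it had an adjusted p of 0.0851, and its call ended without the first E2+ketamine library (0.33, adjusted p = 0.189) or the first E2+(2S,6S)-HNK library (0.4, adjusted p = 0.109). GRIN2D was lower by -0.37 (adjusted p = 0.00409) but lay at 0.06 after the correction, and its call ended without the second E2+ketamine library (-0.27, adjusted p = 0.0864) or the first E2+(2S,6S)-HNK library (-0.29, adjusted p = 0.0769). GRIN1 was lower by -0.89 (adjusted p = 0.0465, over the 6 pairs 0.185), and this ended under the correction (-0.51), by DESeq2 (adjusted p = 0.0718), with upper-quartile normalization (adjusted p = 0.0585), without the first or the second E2+ketamine library (adjusted p = 0.138 and 0.107) and without the second E2+(2S,6S)-HNK library (-0.59, adjusted p = 0.302). Between the mirror images with E2, GRINA was the 1 member called, against 54% of all genes, at -0.43 (SE 0.03, adjusted p = 2.36e-17) and -0.18 after the correction. GRIN3B lay at -0.15 there (95% interval -0.48 to 0.18). Against E2+ketamine GRIN3B lay at 0.35 with E2+(2R,6R)-HNK (adjusted p = 0.0793) and at 0.2 with E2+(2S,6S)-HNK (adjusted p = 0.311). After the correction both passed, at 0.54 (adjusted p = 0.00608) and 0.63 (adjusted p = 0.00144). GRIN3A had 95% intervals of -0.22 to 2.18 and -0.02 to 2.34 in these pairs.

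The third question was whether E2 changed the response to a drug, tested as the drug's effect where E2 was given minus that where it was not. Of the 6 tested members, 3 passed for ketamine (37.5% of all genes), 3 in the case of (2R,6R)-HNK (56.6%) and 4 in that of (2S,6S)-HNK (65.1%). GRIN2D and GRINA passed for all 3 drugs with negative values, and E2 alone had already raised both. After the GC and length correction GRIN2D passed for none of the 3 and GRINA for (2S,6S)-HNK only. The difference for GRIN2C and (2R,6R)-HNK, 0.6 as counted, was larger after the correction (0.95, adjusted p = 0.00164). The call as counted ended by DESeq2 (0.55, adjusted p = 0.124) and with upper-quartile scaling (0.54, adjusted p = 0.0707). It also ended with counts divided by 2 (adjusted p = 0.0516), and without the first (2R,6R)-HNK library the value was 0.37. All 3 tests share the vehicle and E2 libraries.

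The genes whose levels were most like those of the members were named by Pearson's r of log2 CPM over the 16 libraries, among tested genes of at least 1 CPM. GRINA was most like SRC (r = 0.993), RPS6KA1 (0.991) and NXN (0.991). GRIN3A was most like MPP6 (0.958), ZNF501 (0.933) and ARHGAP32 (0.928). GRIN3B was most like GALNT10 (0.953), TMEM187 (0.952) and LEMD2 (0.947), and GRIN2C like KIAA0556 (0.953), STAG3 (0.949) and TRPV1 (0.944). GRIN2D was most like DDR1 (0.89), NYNRIN (0.887) and ARAP3 (0.885), and GRIN1 like OSR1 (0.871), CARHSP1 (0.847) and HOXB13 (0.822). These are the highest of about 12748 candidates over libraries that share treatments, so they describe likeness only. SRC, a kinase that phosphorylates GluN2 subunits, stood at 118 ± 0.943 CPM in vehicle and rose by 0.37 after ketamine, 0.51 after (2R,6R)-HNK and 0.53 after (2S,6S)-HNK. After the correction it lay at 0.03, 0.07 and 0.06.

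Other genes of glutamate signalling gave context for the drugs given alone. The counts called in these lists are read against the 59.3% of all genes called after ketamine, 66.6% after (2R,6R)-HNK and 67.9% after (2S,6S)-HNK, in either direction, and no list was tested as a set. None of the 4 AMPA receptor subunits passed the filter, and GRIA4, the highest, had at most 12 counts. Of 7 kainate and delta receptor subunits 3 were tested, and GRIK4, a kainate receptor subunit, rose from 1.44 ± 0.308 CPM in vehicle by 1.28 after ketamine (SE 0.168, adjusted p = 4.71e-09), 0.84 after (2R,6R)-HNK and 1.44 after (2S,6S)-HNK. It was the 1 gene of that list called with each of the 3 drugs. After the correction it lay at 1.09, 0.65 and 1.22. GRIK4 had 75 to 343 counts in a library, more than GRIN1 in each condition. Of 8 metabotropic receptors 2 were tested, and GRM2, the highest, rose by 0.81 with ketamine (adjusted p = 0.00381) and 0.74 with (2R,6R)-HNK (adjusted p = 0.00873), and had 0.42 with (2S,6S)-HNK (adjusted p = 0.159). After the correction GRM2 lay at 0.53, 0.4 and 0.04.

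In glutamate transport and turnover, 10 of 14 genes were tested. With ketamine 2 rose and 2 fell (59.3% of all genes called), with (2R,6R)-HNK 2 and 3 (66.6%), and with (2S,6S)-HNK 3 and 4 (67.9%). SLC1A1, a neuronal-type glutamate transporter, rose by 0.83 after ketamine, 0.39 after (2R,6R)-HNK and 1.27 after (2S,6S)-HNK, and GLS2, a glutaminase, by 1.09, 0.73 and 1.28. Corrected for GC and length, SLC1A1 lay at 1.03, 0.71 and 1.56 and GLS2 at 0.97, 0.58 and 1.11.

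A list of 18 symbols held genes that make, carry or break down serine and glycine, and CCBL1, KMO, QPRT and IDO1 of the kynurenine pathway, whose product kynurenic acid competes at the glycine site. Of these 17 were in the table and 13 were tested. With ketamine 9 rose and 1 fell (59.3% of all genes called), with (2R,6R)-HNK 9 and 2 (66.6%), and with (2S,6S)-HNK 9 and 1 (67.9%). CCBL1 and QPRT rose with all 3 drugs and are part of these counts. The median log2 fold change was 0.41, 0.55 and 0.47. PHGDH, the first enzyme of serine synthesis, rose from 176 ± 0.677 CPM in vehicle by 0.65 after ketamine (SE 0.027), 0.79 after (2R,6R)-HNK and 1.05 after (2S,6S)-HNK, and lay at 0.49, 0.66 and 0.87 after the correction. SHMT2, which converts serine to glycine in mitochondria, rose by 0.37, 0.63 and 0.82, and lay at 0.08, 0.25 and 0.41 after the correction. SLC6A9, a glycine transporter, rose by 0.69, 0.73 and 0.61, and CCBL1, an enzyme that forms kynurenic acid, by 0.61, 0.46 and 1.47. After the correction SLC6A9 lay at 0.31, 0.22 and 0.07 and CCBL1 at 0.36, 0.1 and 1.1. GLDC, of the glycine cleavage system, fell by 0.77, 0.56 and 0.65 and lay at -0.8, -0.49 and -0.64 after the correction.

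Of 19 partners in calcium signalling downstream of the receptor, 17 were tested. With ketamine 8 rose and 6 fell (59.3% of all genes called), with (2R,6R)-HNK 9 and 6 (66.6%), and with (2S,6S)-HNK 8 and 6 (67.9%). CALM2, a gene for calmodulin, which binds the GluN1 tail, fell by 0.74, 0.67 and 0.79, and lay at -0.43, -0.17 and -0.33 after the correction. CALM3, which also encodes calmodulin and was the highest of the list (560 ± 1.11 CPM in vehicle), had 0.01 after ketamine and rose by 0.06 after (2R,6R)-HNK and 0.23 after (2S,6S)-HNK. After the correction CALM3 lay below 0 for all 3 drugs (-0.29, -0.33 and -0.18). CAMK2B, a subunit of the calmodulin-dependent kinase, rose by 0.77, 0.72 and 1, from 0.964 ± 0.486 CPM in vehicle, and lay at 0.41, 0.32 and 0.54 after the correction. The more abundant genes of this kinase, named after their values were seen, moved apart: CAMK2D (98.6 ± 0.46 CPM in vehicle) fell by 0.44, 0.74 and 0.21, and CAMK2G (52.1 ± 1.18 CPM) rose by 0.25, 0.22 and 0.54. After the correction CAMK2D lay at -0.05, -0.12 and 0.32 and CAMK2G at 0.05, 0.03 and 0.3.

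The TMBIM relatives of GRINA were all tested. Of these 5 genes, 3 rose and 1 fell with ketamine, and 3 rose and 2 fell with each HNK. FAIM2 rose by 0.57 after ketamine, 0.85 after (2R,6R)-HNK and 0.67 after (2S,6S)-HNK, TMBIM1 by 0.2, 0.27 and 0.28, and TMBIM6, the most abundant (680 ± 3.17 CPM in vehicle), by 0.14, 0.08 and 0.16. GHITM, a mitochondrial member, fell by 0.17, 0.32 and 0.43. After the correction FAIM2 lay at 0.26, 0.45 and 0.25 and TMBIM6 at 0.2, 0.23 and 0.28. TMBIM1 lay at -0.05, -0.06 and -0.07 and GHITM at 0.15, 0.19 and 0.04, so the direction of these 2 turned there.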

How the data were processed

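RNA of HMC3 cells was sequenced as paired reads in 16 libraries. Per the submitters' processing notes the authors aligned with TopHat2 2.0.14 and Bowtie2 2.2.6 to hg19 and counted with featureCounts 1.4.6 (the study's methods give other TopHat and Bowtie versions); whether strand was used is not given in the sources used here. The deposited values are raw counts per gene, without normalization.

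In R 4.3.3, edgeR 4.0.16 filtered genes (filterByExpr, 16004 of 25370 kept), scaled by TMM and fitted 1 quasi-likelihood model with 8 group means over all 16 libraries. Benjamini-Hochberg adjustment ran over all tested genes of a comparison, and calls needed an adjusted p under 0.05. Total counts ran from 55300614 to 81646165. CPM used TMM library sizes. Exon lengths and GC content came from GENCODE models on GRCh37, whose chromosome sequences are those of hg19 (21539 genes matched by symbol, 1493 by an older symbol, 95.9% of tested genes with a value). The GC and length correction was a loess fit (span 0.5) per library, used as an offset. The scripts were tested on simulated data.

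The members and gene lists were chosen with earlier results of these data known. Named genes were the members, the 3 genes most like each by Pearson's r, and, per list, the highest gene and up to 3 called in 1 direction with ketamine and both HNKs. PARP10, TMEM259 and PPP3R2 were named after their overlap was seen, and GRIA4, GRM2, CALM3, SHMT2 and TMBIM6 as the highest of their lists; some genes the rule names are not reported here. Alternatives were DESeq2 1.42.0, the groups compared only, upper-quartile scaling, no filter, at least 10 counts in every library, the GC and length correction, the replicate number as a block alone and with it, counts divided by 2, raw library totals, and each library left out. The canonical transcript length was chosen after seeing the data. Groups of 2 libraries allow no useful permutation test of a single gene, so p-values rest on the fitted model.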

Additional observations from a re-analysis of the deposited data

Results flagged for a closer look

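The response to a drug differed with and without E2 for 10 combinations of gene and drug, by the interaction term of edgeR's quasi-likelihood fit (drug effect with E2 minus its effect without, log2 scale). Of the 6 tested members 3 were called for ketamine (37.5% of all genes), 3 for (2R,6R)-HNK (56.6%) and 4 where the drug was (2S,6S)-HNK (65.1%). GRIN2D had -0.47 for ketamine (SE 0.162, adjusted p = 0.019), -0.69 for (2R,6R)-HNK (SE 0.164, adjusted p = 0.000315) and -0.71 for (2S,6S)-HNK (SE 0.166, adjusted p = 0.000206), and after the GC and length correction -0.3, -0.23 and -0.01, none called. GRINA had -0.15 for ketamine (adjusted p = 0.00294), -0.44 for (2R,6R)-HNK (adjusted p = 6.99e-13) and -0.91 for (2S,6S)-HNK (adjusted p = 2.72e-24), of which the last alone was called after the correction (-0.24, adjusted p = 8.52e-08). GRIN3B had -0.73 for ketamine (SE 0.264, adjusted p = 0.0252) and -1.12 for (2S,6S)-HNK (SE 0.26, adjusted p = 0.000174), and -0.6 and -0.48 after the correction, neither called. Its value for (2R,6R)-HNK was 0.03 (95% interval -0.51 to 0.58).

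GRIN2C had 0.6 for (2R,6R)-HNK (SE 0.258, adjusted p = 0.0433) and 0.95 after the correction (adjusted p = 0.00164). DESeq2 gave an adjusted p of 0.124, and the call ended with 6 of the 8 libraries left out in turn, and the value ran from 0.37 without the first (2R,6R)-HNK library (adjusted p = 0.287) to 0.84 without the second (adjusted p = 0.0105, still called). GRIN3A had 1.82 for (2S,6S)-HNK (SE 0.738, adjusted p = 0.0277) and 1.81 after the correction (adjusted p = 0.0473). DESeq2 gave an adjusted p of 0.0623, and the call ended with 5 of the 8 libraries left out in turn, and the value ran from 1.33 without the second (2S,6S)-HNK library (adjusted p = 0.152) to 2.52 without the first (adjusted p = 0.0119, still called). The ketamine call of GRIN2D ended with 4 of 8 libraries left out (adjusted p up to 0.133, without the second ketamine library), and that of GRIN3B with 4 of 8 (up to 0.172, without the second E2 library). Groups of 2 libraries were not tested for a single library far from the others.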

How the results depend on the processing

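The GC and length correction changed most: it left 1 called member with E2, 3 with ketamine, 1 with (2R,6R)-HNK, 3 with (2S,6S)-HNK and 2 with E2+ketamine, against ketamine 2 after (2R,6R)-HNK and 1 after (2S,6S)-HNK, and 0, 1 and 2 for the 3 interactions, the same with the replicate block added. It turned GRIN1 with E2 (-0.07, with the block -0.1) and E2+(2S,6S)-HNK (-0.04, with the block -0.07). It turned GRIN2C with E2 (-0.21, with the block -0.2), (2R,6R)-HNK (-0.26) and E2+ketamine (-0.33). GRIN2D turned with (2R,6R)-HNK (-0.12, with the block -0.11), (2S,6S)-HNK (-0.15), E2+ketamine (-0.19), E2+(2R,6R)-HNK (-0.33) and E2+(2S,6S)-HNK (-0.14, with the block -0.13), and against E2+ketamine with E2+(2S,6S)-HNK (0.06). GRIN3B turned with (2R,6R)-HNK (-0.05). GRINA turned with (2R,6R)-HNK (-0.00092, with the block -0.00068) and E2+(2S,6S)-HNK (-0.11), against ketamine with (2R,6R)-HNK (-0.1, with the block -0.09) and (2S,6S)-HNK (-0.0015, with the block -0.0018), against E2+ketamine with E2+(2R,6R)-HNK (0.01), and in the (2R,6R)-HNK interaction (0.03); the cause was not tested. Fitting the groups compared only gave 5 members with E2+(2S,6S)-HNK, GRIN2D (adjusted p = 0.021) and GRIN3A (0.0406) added, and DESeq2 gave 2 for E2+(2S,6S)-HNK against E2+ketamine. GRIN1 with (2S,6S)-HNK passed with upper-quartile scaling (adjusted p = 0.0383), at least 10 counts (0.0291) and counts divided by 2 (0.0478). So did GRIN1 with E2+(2R,6R)-HNK with at least 10 counts (0.0457), GRIN2D with E2+(2S,6S)-HNK with upper-quartile scaling (0.0077) and at least 10 counts (0.0478), and GRIN3A with E2+(2S,6S)-HNK with counts divided by 2 (0.0142). The GRIN3B interaction for ketamine ended by DESeq2 (0.0505) and that of GRIN2C for (2R,6R)-HNK with upper-quartile scaling (0.0707) and counts divided by 2 (0.0516). With each library left out, called members ran from 3 to 4 with E2, 3 to 6 with ketamine, 1 to 4 with (2R,6R)-HNK, 3 to 6 with (2S,6S)-HNK, 4 to 5 with E2+ketamine, 3 to 6 with E2+(2R,6R)-HNK and 3 to 4 with E2+(2S,6S)-HNK. Between compounds they ran from 0 to 1, 2 to 2 and 1 to 2 without E2, and 2 to 4, 2 to 3 and 1 to 1 with it, and for the interactions from 2 to 2, 2 to 4 and 3 to 4. Then GRIN2C with (2R,6R)-HNK lay between -0.01 and 0.45, and GRIN1 with E2+(2S,6S)-HNK between -0.18 and 0.78 (-0.13 without the first vehicle library). With 1 library left in a group, that library was assumed to vary like the others. GRIN3A has no value under the filter of at least 10 counts in every library. GRIN2A and GRIN2B did not pass edgeR's filter; against vehicle DESeq2 gave GRIN2B adjusted p-values of 0.426 to 0.993 and GRIN2A none. GRIN1 and GRIN3A rest on at most 58 and 41 counts in a library.

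The labels link libraries with the same replicate number by that number alone. Their deviations correlated between conditions at -0.0258 to 0.0451, which cannot tell whether they shared a culture or batch. The replicate block alone gave the same counts of called members: 4, 6, 5, 5, 5, 5 and 3 against vehicle, 1, 2, 2, 3, 4 and 1 between compounds, and 3, 3 and 4 for the interactions.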

Other observations

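The members did not move as a group over the 16 libraries. Pearson's r of log2 CPM was 0.76 for GRIN2D with GRINA, 0.76 for GRIN2C with GRIN3B and 0.759 for GRIN1 with GRINA. It was -0.845 for GRIN3A with GRINA, -0.839 for GRIN3A with GRIN2D and -0.514 for GRIN3A with GRIN3B. GRIN2C and GRIN2D, the 2 glutamate-binding subunits that were tested, had an r of 0.0229. These values describe libraries that share treatments and base composition, and no p-value is attached.

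Of the 13 tested genes of serine, glycine and kynurenine metabolism and transport, 11 rose and 2 fell with E2+ketamine (median 0.82, against -0.035 over all genes, of which 71.7% were called). With E2+(2R,6R)-HNK 9 rose and 1 fell (69.7% of all genes called), with E2+(2S,6S)-HNK 9 rose and 2 fell (59.7%) and with E2 alone 9 rose and 2 fell (62.5%). Of the 5 TMBIM relatives of GRINA, 3 rose and 1 fell with E2, 3 rose and 2 fell with E2+ketamine and with E2+(2R,6R)-HNK, and 0 rose and 2 fell with E2+(2S,6S)-HNK. No list was tested against another.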
